A study of Mus musculus with 12 samples.

Results

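The 10 genes described here belong to glutathione metabolism and to the detoxification response driven by the transcription factor Nrf2. They are the glutathione transferases Gstm1, Gstm5, Gstp1 and Gsta4, the glutathione peroxidases Gpx1 and Gpx4, the glutamate-cysteine ligase subunits Gclc and Gclm, the quinone reductase Nqo1 and the thioredoxin reductase Txnrd1. They were chosen by name, 10 of the 32285 genes in the count matrix, and all 10 were detected. Each was followed through the cell types that the authors had annotated and through the 4 treatment groups.

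Glutathione is a tripeptide of glutamate, cysteine and glycine, and glutamate-cysteine ligase catalyses the rate-limiting step of its synthesis. Transferases couple it to electrophiles, peroxidases use it to reduce peroxides, and both consume the pool that synthesis refills. Under oxidative or electrophile stress Nrf2 escapes its inhibitor Keap1, pairs with small Maf proteins and binds antioxidant response elements in the promoters of such genes. In the brain this system is best known from astrocytes, which also supply neurons with glutathione precursors. Cisplatin, a platinum drug given against many tumours, is itself an electrophile that glutathione can bind.

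Single-cell RNA-seq had been made from the dissociated hippocampus of female C57/BL6J mice aged 9 weeks. The groups were Cisplatin stim, Cisplatin nonstim, PBS stim and PBS nonstim, with 3 libraries in each. Cisplatin mice modelled the cognitive effects of chemotherapy, PBS mice received PBS injections, and a cisplatin dose was not given in the sources used here. Stimulation was sound and light flicker at 40 Hz for 1 h a day over 21 days, starting on the first day of cisplatin, and tissue was taken on day 22. Replicate 1 of each group held both hippocampi of 1 mouse and carried another prefix in its library name than replicates 2 and 3, which each pooled 2 mice. These sets are called the first and second batch here, with no order in time implied, and batch and the number of pooled mice cannot be told apart.

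The matrix held 19834 cells, 611 to 2772 per library, with 3964338 to 17656020 unique molecular identifiers (UMIs) per library and a median of 5581 UMIs per cell. The median mitochondrial share was 10.7% to 17.6% in the first batch and 3.19% to 5.12% in the second. The share of ribosomal RNA-like transcripts (Gm42418, AY036118 and Lars2) also differed between groups: in the second batch it was 0.417% to 0.782% in cisplatin libraries and 1.87% to 3.65% in PBS libraries. In the first batch it was 0.340% to 0.393% in cisplatin libraries and 0.479% to 0.542% in PBS libraries. Each list of defining markers had its highest summed level in the cell type of its name. Levels below are CPM, the UMIs of a gene per 1000000 UMIs summed over all cells of 1 type in 1 library, and the library is the replicate. Counts came from the 3' ends of transcripts, so CPM is not length-scaled and levels of different genes are only loosely comparable.

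In the GRCm38 build, Gstm1 lies at chr3:108012255-108017973 on the minus strand and Gstm5 at chr3:107895821-107898686 on the plus strand of the same chromosome, with Gclm at chr3:122245557-122270732 on its plus strand. Gstp1 lies at chr19:4035407-4037985 on the minus strand. The other members are Gsta4 at chr9:78182774-78209349, Gclc at chr9:77754535-77794485 and Gpx1 at chr9:108338903-108340343 on 1 chromosome, Gpx4 at chr10:80047166-80056439 and Txnrd1 at chr10:82833951-82897712 on another, all on the plus strand, and Nqo1 at chr8:107388225-107403206 on the minus strand.

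The 250 bases before the annotated start are shown for 4 members with called differences below: the mu-class pair Gstm5 and Gstm1, Gclm, and Gstp1, the 1 member with calls of both signs. The sequences are from RefSeq (GRCm38.p6), read 5′ to 3′ on the strand of the gene. Capitals mark each match to TGANNNNGC, a loose form of the antioxidant response element core, on either strand.
Gstm5 (chr3:107895604-107895853, plus strand): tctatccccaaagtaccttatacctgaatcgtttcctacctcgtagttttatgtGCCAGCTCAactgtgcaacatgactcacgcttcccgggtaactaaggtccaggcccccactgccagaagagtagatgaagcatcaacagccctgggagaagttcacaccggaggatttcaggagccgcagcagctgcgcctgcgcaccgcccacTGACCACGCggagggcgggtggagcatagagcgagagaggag
Gstm1 (chr3:108017974-108018223, minus strand): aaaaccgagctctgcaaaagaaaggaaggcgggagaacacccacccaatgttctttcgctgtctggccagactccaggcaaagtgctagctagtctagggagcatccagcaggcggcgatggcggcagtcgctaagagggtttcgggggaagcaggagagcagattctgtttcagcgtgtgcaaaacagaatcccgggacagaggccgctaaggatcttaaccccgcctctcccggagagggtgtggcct
Gclm (chr3:122245307-122245556, plus strand): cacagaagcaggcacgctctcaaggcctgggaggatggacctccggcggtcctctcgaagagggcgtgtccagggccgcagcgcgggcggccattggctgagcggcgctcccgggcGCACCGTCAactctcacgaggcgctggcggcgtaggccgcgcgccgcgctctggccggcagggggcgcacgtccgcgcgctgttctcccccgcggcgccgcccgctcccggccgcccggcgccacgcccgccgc
Gstp1 (chr19:4037913-4038162, minus strand): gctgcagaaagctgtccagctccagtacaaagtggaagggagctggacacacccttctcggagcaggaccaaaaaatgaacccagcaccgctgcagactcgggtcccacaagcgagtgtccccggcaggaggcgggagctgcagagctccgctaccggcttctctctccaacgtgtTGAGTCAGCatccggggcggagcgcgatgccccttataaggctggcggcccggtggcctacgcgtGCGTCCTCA
Gstm5 held TGACCACGC 42 bases before its start, and on the opposite strand GCCAGCTCA 196 bases before it. Gclm held GCACCGTCA on the opposite strand at 134 bases, and Gstp1 held TGAGTCAGC at 74 bases and GCGTCCTCA on the opposite strand at 9 bases. The Gstm1 window held no match. The narrower form TGACNNNGC was present in 3 of the 14 windows of the 8 members that had any, and in 10.2% of all 32851 windows. TGANNNNGC was present in 5 of the 14 windows, from 4 members, and in 35.2% of all windows. These matches describe letters in a window and were not tested as binding sites.

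The members divided the tissue between them. These levels describe the annotated types, which were clustered on the same genes, and carry no test. Gstm1 was highest in astrocytes (1508 ± 306 CPM, SD, n = 12 libraries) and ependymal cells (1477 ± 449.9 CPM, n = 9), whose order held in 6 of the 9 libraries that had both. It was next in endothelium (306 CPM) and pericytes (265 CPM), in that order in 11 of 11 libraries, and lowest in microglia (18.1 CPM). Gstm5 shared the highest and the lowest type, with 2012 ± 542 CPM in astrocytes and 25.7 CPM in microglia. Fibroblasts had 784 CPM, in 3 libraries of 13 to 16 cells that were all of cisplatin mice. The order of Gstm5 in between was another: oligodendrocytes had 377 CPM, ependymal cells had 203 CPM and endothelium 64.6 CPM. Gstp1, the pi-class transferase long used as a label of oligodendrocytes in rodent brain, had 582 ± 249 CPM there. The next type was choroid plexus at 79.7 CPM, below oligodendrocytes in 12 of 12 libraries.

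Gsta4, the alpha-class transferase that clears hydroxyalkenals from oxidised lipids, was a gene of the barriers: 561 ± 169.5 CPM in choroid plexus, 359.6 CPM in endothelium and 275 CPM in ependymal cells, against 1.86 CPM in oligodendrocytes. Gpx1, the cytosolic selenoenzyme that reduces hydrogen peroxide, was highest in immune cells (561 ± 146 CPM) and microglia (552 ± 58.8 CPM), whose order held in 8 of 12 libraries, and lowest in oligodendrocytes (26.4 CPM). Gpx4, the selenoenzyme that reduces phospholipid peroxides and so protects cells from ferroptosis, was found in every type, from 3009 ± 828 CPM in choroid plexus to 265 CPM in oligodendrocyte precursors (OPCs). Choroid plexus was the highest type in 12 of 12 libraries.

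Gclc and Gclm encode the catalytic and the modifier subunit of glutamate-cysteine ligase. Gclc had 188 ± 45.0 CPM in ependymal cells and 59.4 CPM in microglia. Gclm had 177 CPM in ependymal cells and 164 CPM in oligodendrocytes, in an order that held in 5 of 9 libraries. It had 138 CPM in endothelium and 121 CPM in astrocytes. Nqo1, which reduces quinones with electrons from NAD(P)H, had its highest levels in choroid plexus (68.1 ± 22.3 CPM) and fibroblasts (58.6 CPM, 3 cisplatin libraries). Txnrd1, the selenoenzyme that keeps thioredoxin reduced in the cytosol, was highest in progenitors (224 ± 84.5 CPM, n = 6) and next in OPCs (78.2 CPM), in that order in 6 of 6 libraries. Of these progenitor libraries 5 were PBS (228 to 305 CPM) and 1 was cisplatin (59.5 CPM).

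**Figure D1:**
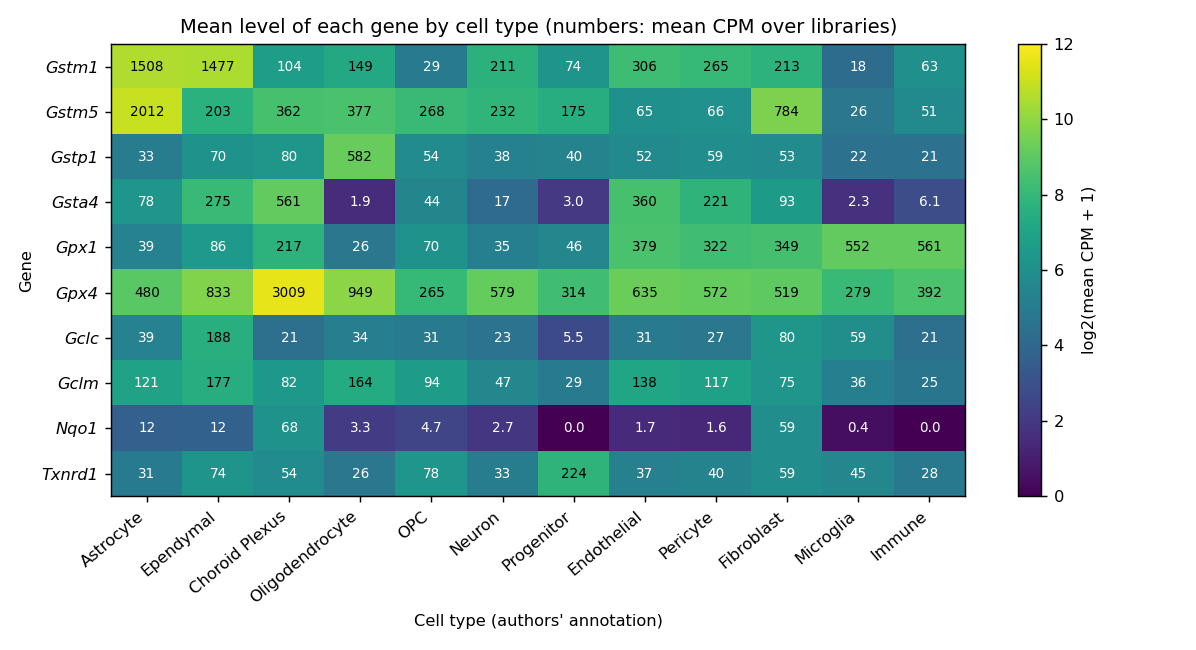
Heat map of the mean CPM of the 10 members (rows) in the 12 annotated cell types (columns), averaged over libraries with at least 10 cells of the type. Gstm1 and Gstm5 are strongest in astrocytes, Gstp1 in oligodendrocytes, Gsta4, Gpx4 and Nqo1 in choroid plexus and Gpx1 in immune cells and microglia.

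Cisplatin was compared with PBS in the 9 cell types that had enough libraries, which gave 74 pairs of member and type that passed the filter on low counts. Averaged over stimulation, 17 of the 74 pairs were called higher and 1 lower in cisplatin mice by edgeR's quasi-likelihood test at a Benjamini-Hochberg adjusted p under 0.05. Over all 69488 gene and type pairs the shares called were 5.12% higher and 4.6% lower. Differences were positive in 55 of the 74 pairs, with a median log2 fold change of 0.21. Gstm1 led, with higher calls in 7 of its 9 types, followed by Gpx4 with 3, Gstm5, Gpx1 and Nqo1 with 2 each and Gclm with 1. Txnrd1 in choroid plexus was the lower call, and Gstp1, Gsta4 and Gclc had none.

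Among unstimulated mice (Cisplatin nonstim against PBS nonstim) 3 pairs were called higher, Gstm1 and Gstp1 in oligodendrocytes and Gstp1 in microglia, and none lower, beside 0.937% and 0.707% of all pairs. Among stimulated mice (Cisplatin stim against PBS stim) 8 were called higher and 3 lower, beside 2.16% and 1.73% of all pairs, and all 3 lower calls were Gstp1. These comparisons use the same libraries as the averaged one and are not separate evidence. P-values measure the spread between these libraries, of which 8 pool mice.

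The number of calls changed with the covariates and with the libraries used, among other pathway genes as well. For the 87 such genes described below, averaged higher calls were 43 of 481 pairs in the main fit. They were 4 of 481 with the ribosomal RNA-like covariate and 81 of 489 in the second batch alone. The share of all genes called under each alternative is not given here. With the ribosomal RNA-like share of each library as a covariate, the averaged comparison gave 0 higher and 1 lower call. Without the 4 second-batch PBS libraries, where that share was highest, it gave 1 higher and 1 lower, and the second batch alone gave 25 higher and 2 lower. In each batch every cisplatin library had a lower share than every PBS library, so drug and share cannot be told apart. The part of this share in the differences was not tested. Ratios within each batch are given beside the results.

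**Figure D2:**
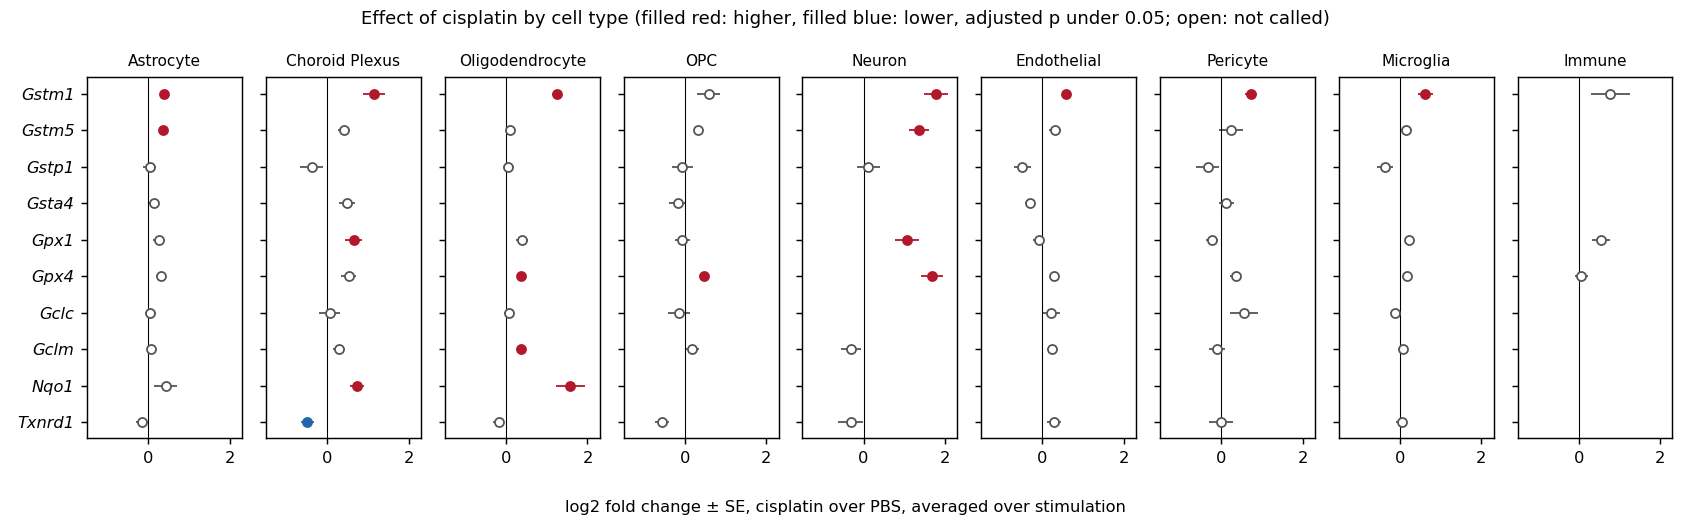
Log2 fold change of cisplatin over PBS, averaged over stimulation, with its SE, for each member (edgeR, 12 libraries at most) in each tested cell type. Gstm1 lies above 0 in all 9 types and reaches 1.78 in neurons and 1.26 in oligodendrocytes, while Gstp1 lies between -0.49 and 0.12.

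Gstm1, a mu-class transferase that couples glutathione to many electrophiles, rose in oligodendrocytes with the smallest adjusted p of any member. It had 145, 255 and 246 CPM in Cisplatin stim libraries, 148, 219.5 and 239 CPM in Cisplatin nonstim libraries, 76.8, 72.4 and 98.8 CPM in PBS stim libraries and 116, 88.3 and 82.3 CPM in PBS nonstim libraries. Every cisplatin library lay above every PBS library. Here and below, the share of all genes without such overlap was counted only for ependymal cells. The averaged log2 fold change was 1.26 ± 0.13 (SE; adjusted p = 8.18e-07, edgeR, n = 6 libraries each), beside 11.3% of oligodendrocyte genes called higher, and the batch ratios of the cisplatin over the PBS mean were 1.52 (first) and 2.81 (second). The call held within unstimulated mice (1.11 ± 0.17, adjusted p = 8.13e-04, edgeR) and within stimulated mice (1.40 ± 0.19, adjusted p = 3.53e-05, edgeR). It was kept in 12 of 12 fits that left out 1 library. With the ribosomal RNA-like covariate the averaged value was 0.53 and was not called, whereas without the second-batch PBS libraries it was 0.68 (adjusted p = 0.015, edgeR) and still called.

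Medians were higher with cisplatin in oligodendrocyte clusters 2, 7 and 8. In the authors' cluster 2 the median was 157 CPM (72.2 to 181) in cisplatin libraries and 50.4 CPM (15.2 to 71.0) in PBS libraries. In cluster 7 it was 149.6 CPM (79.4 to 231) in cisplatin libraries and 72.8 CPM (36.2 to 79.8) in PBS libraries. In cluster 8, where Gstm1 was highest, it was 408 CPM (251 to 421) in cisplatin libraries and 158 CPM (105 to 214) in PBS libraries. The lowest cisplatin library was thus above the highest PBS library in clusters 2 and 8, and just below it in cluster 7. Cisplatin nonstim 1 and PBS nonstim 1 were close in cluster 2 (72.2 and 71.0 CPM) and cluster 7 (79.4 and 77.0 CPM), less so in cluster 8 (261 and 202 CPM). Cluster 11, with levels for first-batch libraries only, had 129 and 155 CPM in cisplatin and 74.4 and 103 CPM in PBS libraries. Because Gstm1 is abundant in astrocytes, astrocyte markers were followed in the same cells. Their summed level in oligodendrocytes was 194 to 534 CPM in cisplatin libraries and 207 to 404 CPM in PBS libraries, or 0.607% to 1.74% and 0.740% to 1.20% of the astrocyte level, and no marker was at 0. Gstm1 itself stood at 9.43% to 13.3% of its astrocyte level in cisplatin libraries and 5.37% to 8.86% in PBS libraries. Of the 6 astrocyte markers tested in oligodendrocytes, Aldoc rose (log2 fold change 0.92), Aqp4 fell by 1.12, and the median was -0.01.

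In endothelium Gstm1 had 317, 340.4 and 451 CPM in the cisplatin libraries, against 216, 235 and 308 CPM in the PBS libraries (lowest, median and highest of 6). The groups did not overlap. It rose by a log2 fold change of 0.57 ± 0.10 (adjusted p = 6.68e-04, edgeR), beside 3.13% of endothelial genes called higher, with batch ratios of 1.36 (first) and 1.58 (second), and the call was kept in 12 of 12 leave-one-out fits. Among stimulated mice alone it was 0.80 ± 0.14 (adjusted p = 0.0026, edgeR). In pericytes, the contractile cells of the capillary wall, it had 265, 311 and 412 CPM in the 6 cisplatin libraries, against 184, 188 and 199.8 CPM in the 5 PBS libraries, again without overlap. PBS in the first batch was PBS nonstim 1 alone there, with 15 cells, as PBS stim 1 had only 5. The log2 fold change was 0.74 ± 0.15 (adjusted p = 0.0115, edgeR), beside 0.88% of pericyte genes called higher, with batch ratios of 1.82 (first) and 1.66 (second); the call was lost without PBS stim replicate 3 or Cisplatin stim replicate 2 (highest adjusted p 0.0903). Astrocyte markers in these vascular cells were at most 2.99% of the astrocyte level, while Gstm1 was at 17.6% to 29.3% of it in endothelium and 14.3% to 26.7% in pericytes of cisplatin libraries. Cells annotated as pericytes also carried endothelial markers at a summed 12120 CPM, against 19825 CPM in endothelium.

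In astrocytes, its main site, Gstm1 had 1233, 1826 and 1959.7 CPM in the cisplatin libraries, against 1115, 1321 and 1456 CPM in the PBS libraries. The groups overlapped. The log2 fold change was 0.39 ± 0.11 (adjusted p = 0.0378, edgeR), beside 2.6% of astrocyte genes called higher, and it did not hold in the first batch, the batch ratios being 0.989 (first) and 1.51 (second). The call was kept in 4 of 12 leave-one-out fits and lost without any 1 of the 8 second-batch libraries (adjusted p up to 0.123). With the ribosomal RNA-like covariate the value was -0.013. In ependymal cells, which had too few libraries for a test, it had 1656 to 2106 CPM in 4 cisplatin libraries and 1045 to 1177 CPM in 5 PBS libraries. These did not overlap, as was so in the same direction for 2.03% of 7155 ependymal genes.

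Choroid plexus and microglia held the weaker Gstm1 calls. In choroid plexus, the epithelium that makes cerebrospinal fluid, it had 70.7, 122 and 191 CPM in the cisplatin libraries, against 41.3, 60.4 and 189 CPM in the PBS libraries, with overlap, and rose by 1.14 ± 0.27 on the log2 scale (adjusted p = 0.018, edgeR), beside 5.96% of choroid plexus genes called higher. The direction did not hold in both batches, with ratios of 0.853 (first) and 2.40 (second), and the first-batch PBS libraries held only 18 (stim) and 29 (nonstim) choroid plexus cells. With a minimum of 30 cells, which leaves both out, the value was 1.41 and still called. No first-batch PBS library then remained, so that value rests on the second batch and cannot address the opposite direction in the first. The call was kept in 6 of 12 leave-one-out fits, being lost without PBS nonstim 2 or 3, PBS stim 2 or 3, Cisplatin nonstim 2 or Cisplatin stim 2 (adjusted p up to 0.106). Astrocyte markers there were at 3.66% to 8.23% of the astrocyte level in cisplatin libraries and 0.974% to 5.18% in PBS libraries, and Gstm1 itself at 3.81% to 9.73% and 3.22% to 13.2%. They stood far apart in PBS stim 1, with Gstm1 at 13.2% and the markers at 0.974%, and in PBS nonstim 1, at 7.07% and 1.96%. The astrocyte marker Aldoc was called higher there (1.30), 1 of 3 astrocyte markers tested. Their median, averaged over stimulation, was 0.80. In microglia Gstm1 had 14.6, 19.8 and 35.3 CPM in the cisplatin libraries, against 6.94, 13.7 and 19.1 CPM in the PBS libraries. The log2 fold change was 0.63 ± 0.19 (adjusted p = 0.0272, edgeR; batch ratios 1.83 (first) and 1.51 (second)), beside 8.2% of microglial genes called higher. The call was lost without Cisplatin stim 1 or 2, Cisplatin nonstim 3, PBS stim 3 or PBS nonstim 1 (adjusted p up to 0.0876). The median was 1.06% of the astrocyte level in cisplatin libraries and 1.05% in PBS libraries, beside 1.19% and 1.04% for the astrocyte markers. In the first-batch cisplatin libraries Gstm1 was at 2.29% (Cisplatin stim 1) and 2.49% (Cisplatin nonstim 1), beside 1.88% and 1.46% for the markers. Aldoc was called higher in microglia too (0.90), 1 of 5 astrocyte markers tested, whose median averaged over stimulation was 0.27. The part of free astrocyte RNA in the microglial Gstm1 difference was not tested.

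**Figure D3:**
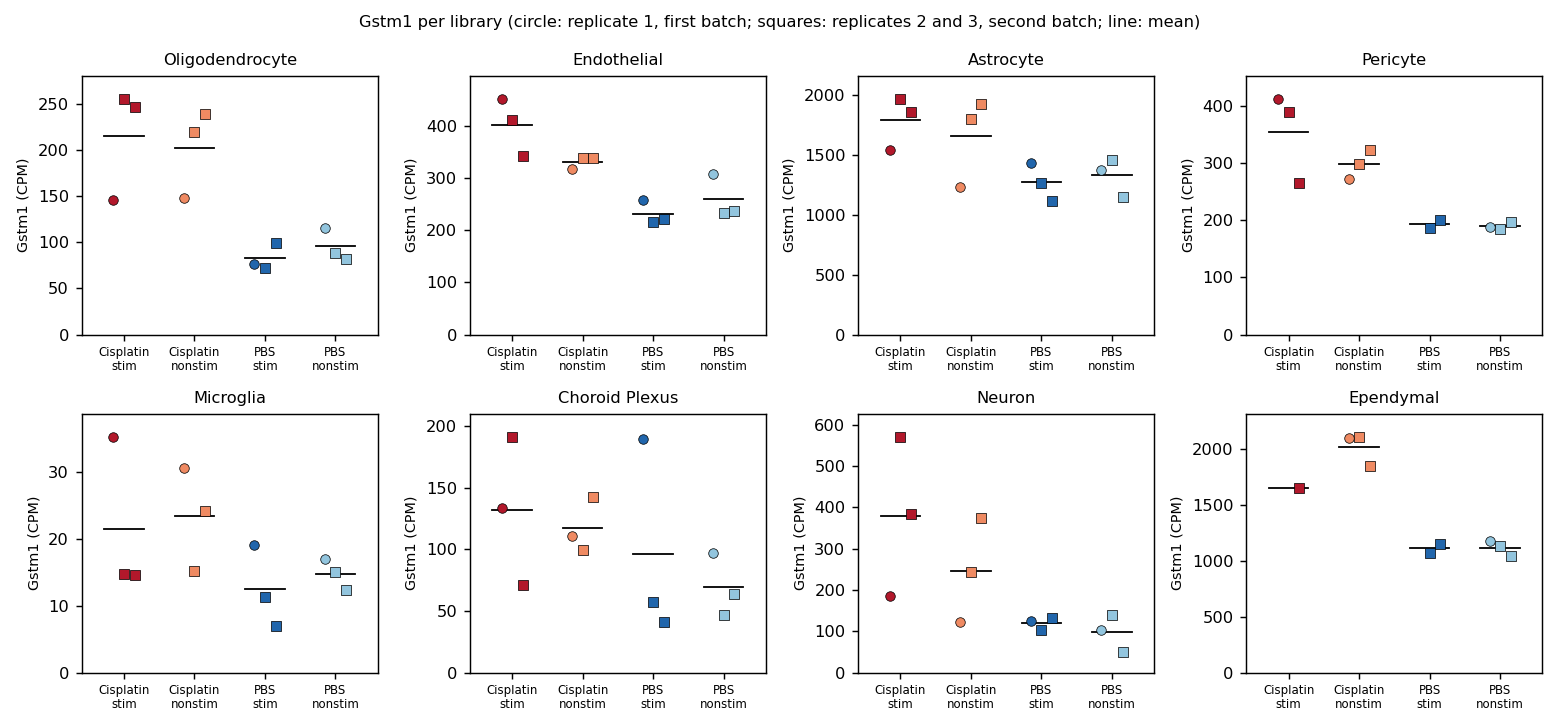
Gstm1 in CPM for each library, with Cisplatin stim, Cisplatin nonstim, PBS stim and PBS nonstim from left to right within each of 8 cell types; lines mark group means. Cisplatin and PBS libraries do not overlap in oligodendrocytes, endothelium, pericytes or ependymal cells, and overlap in astrocytes.

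Gstm5, the neighbouring mu-class gene, was called higher in astrocytes, where it had 1374, 2516 and 2861 CPM in the cisplatin libraries, against 1449, 1708 and 2087 CPM in the PBS libraries. These ranges overlapped. The log2 fold change was 0.36 ± 0.10 (adjusted p = 0.038, edgeR), with batch ratios of 1.05 (first) and 1.43 (second), and the call was lost without any 1 of the 8 second-batch libraries (adjusted p up to 0.127). In oligodendrocytes, where the Gstm1 call had its smallest adjusted p, Gstm5 had 292, 401 and 431 CPM in the cisplatin libraries, against 334, 367 and 398 CPM in the PBS libraries and a log2 fold change of 0.10 ± 0.072 (adjusted p = 0.321, edgeR). In OPCs the libraries did not overlap (264, 281 and 383 CPM in the cisplatin libraries, against 217, 234 and 260.3 CPM in the PBS libraries), but the test did not pass (adjusted p = 0.101, edgeR). Reads of Gstm1 could be split with copies: 28.8% of the 31-base words of its transcript also occur in other genes, mostly in Gstm2-ps1. Toward its counted 3' end, 31.1% of the words do. Gstm5 shared 0% of its words, but overlaps the antisense gene 4933431E20Rik.

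Gsta4 was tested in 5 types and called in none of the comparisons. In choroid plexus, its main site, it had 380.0, 636 and 747 CPM in the cisplatin libraries, against 362, 429 and 797 CPM in the PBS libraries, a log2 fold change of 0.49 ± 0.21 (adjusted p = 0.105, edgeR). In endothelium it had 247, 333 and 361 CPM in the cisplatin libraries, against 322, 386 and 550.5 CPM in the PBS libraries, a value of -0.30 ± 0.12 (adjusted p = 0.156, edgeR). The ranges overlapped in both.

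Gstp1 was the 1 member called for stimulation. In cisplatin mice its level was lower with stimulation in oligodendrocytes, microglia and endothelium, 3 of the 74 pairs, beside 0.0504% of all pairs called lower. No member was called higher, beside 0.145%. In oligodendrocytes it had 724, 320.0 and 216 CPM in Cisplatin stim libraries, 823, 717 and 764 CPM in Cisplatin nonstim libraries, 1075, 424 and 615 CPM in PBS stim libraries and 531, 437 and 341 CPM in PBS nonstim libraries. Each Cisplatin stim library lay below the Cisplatin nonstim library of the same batch, and its first replicate lay within their range. The log2 fold change of Cisplatin stim over Cisplatin nonstim was -1.04 ± 0.20 (adjusted p = 0.0123, edgeR).

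Microglia and endothelium held far less Gstp1. In microglia it had 14.1, 7.77 and 5.61 CPM in Cisplatin stim libraries, 44.1, 25.2 and 24.8 CPM in Cisplatin nonstim libraries, 54.7, 11.4 and 25.6 CPM in PBS stim libraries and 28.8, 11 and 14.3 CPM in PBS nonstim libraries. Cisplatin stim libraries all lay below Cisplatin nonstim libraries, with a log2 fold change of -1.82 ± 0.32 (adjusted p = 0.0182, edgeR). In endothelium it had 27.4, 20.4 and 16.3 CPM in Cisplatin stim libraries, 85.5, 63.9 and 62.7 CPM in Cisplatin nonstim libraries, 101, 18.6 and 61.7 CPM in PBS stim libraries and 93.2, 39.2 and 35.9 CPM in PBS nonstim libraries. The 2 cisplatin groups again did not overlap, and the value was -1.69 ± 0.31 (adjusted p = 0.0282, edgeR). Microglial Gstp1 was 1.95% to 5.36% of the oligodendrocyte level in cisplatin libraries and 2.52% to 5.42% in PBS libraries, while oligodendrocyte markers there were 0.607% to 2.91% and 0.411% to 1.69% of theirs. Of the 5 oligodendrocyte markers tested in microglia, Mobp (0.83) and Mbp (0.78) were called higher with cisplatin. The median of the 5, averaged over stimulation, was 0.13. For Cisplatin stim against Cisplatin nonstim 0 of them were called in microglia, with a median of -0.047. In endothelium of cisplatin libraries Gstp1 was at 3.79% to 10.4% and the markers at 0.481% to 2.59%. Over 12 libraries, Gstp1 in microglia and endothelium had a Pearson r of 0.876 and 0.761 with its level in oligodendrocytes. Over all types compared, r ran from 0.455 in progenitors (6 libraries) to 0.939 in ependymal cells (9 libraries). The share of these levels that came from free oligodendrocyte RNA was not tested.

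In PBS mice the direction of the Gstp1 difference was the other way and was not called: the log2 fold change of PBS stim over PBS nonstim was 0.61 ± 0.20 in oligodendrocytes and 0.63 ± 0.23 in microglia. For PBS stim against PBS nonstim, edgeR called none of the 74 pairs and 0% of all pairs; 6 of the 74 had an unadjusted p under 0.05, and DESeq2 and limma-voom also called none. The interaction, the stimulation effect in cisplatin mice minus that in PBS mice, was called lower for Gstp1 in microglia (-2.45 ± 0.40, adjusted p = 0.0168, edgeR) and oligodendrocytes (-1.66 ± 0.28, adjusted p = 0.0163, edgeR), beside 0.00863% of all pairs called lower. No member was called higher, beside 0.0158%. The interaction of Gstp1 was negative in all 8 types tested, from -2.45 in microglia to -1.31 in astrocytes; types of 1 library share their mice and free RNA and are not independent.

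Set against PBS with the same stimulation, Gstp1 had opposite signs. Unstimulated, it was higher with cisplatin in oligodendrocytes (0.88 ± 0.20, adjusted p = 0.0108, edgeR) and microglia (0.86 ± 0.22, adjusted p = 0.0303, edgeR). Stimulated, it was lower with cisplatin in oligodendrocytes (-0.77 ± 0.20, adjusted p = 0.0131, edgeR), microglia (-1.59 ± 0.34, adjusted p = 0.00624, edgeR) and endothelium (-1.35 ± 0.36, adjusted p = 0.0433, edgeR). Averaged over stimulation it was 0.057 ± 0.14 in oligodendrocytes and was not called. Replicate 1 was the highest library of each group in oligodendrocytes. Without the batch term none of the Gstp1 differences was called, with adjusted p between 0.22 and 1. Of the 31-base words of Gstp1, 38.5% are shared, mostly with Gstp2, and 42.2% of those toward the counted 3' end of its transcripts.

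Of the 10 Gstp1 calls only Cisplatin stim against PBS stim in microglia was kept in all 12 leave-one-out fits. For Cisplatin stim against Cisplatin nonstim, the oligodendrocyte call was lost without Cisplatin nonstim 3 or Cisplatin stim 2 or 3 (adjusted p up to 0.0697, edgeR). The microglial call was lost without Cisplatin stim 1, 2 or 3 or Cisplatin nonstim 2 (up to 0.12), and the endothelial one without Cisplatin stim 1 or 3 or Cisplatin nonstim 2 or 3 (up to 0.138). For the interaction, both calls were lost without PBS stim 3 or Cisplatin nonstim 2. The oligodendrocyte one was also lost without PBS stim 1 or Cisplatin nonstim 3 (up to 0.0703) and the microglial one without PBS nonstim 1 or Cisplatin stim 3 (up to 0.142). Against PBS nonstim, the oligodendrocyte call was lost without PBS nonstim 3 or Cisplatin nonstim 2 or 3 (up to 0.0777), and the microglial one without any PBS nonstim library or Cisplatin nonstim 2 or 3 (up to 0.224). Against PBS stim, the oligodendrocyte call was lost without PBS stim 1 or 3 or Cisplatin stim 3 (up to 0.0831). The endothelial one was lost without any Cisplatin stim library, PBS stim 1 or 3, PBS nonstim 3 or Cisplatin nonstim 3 (up to 0.378).

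**Figure D4:**
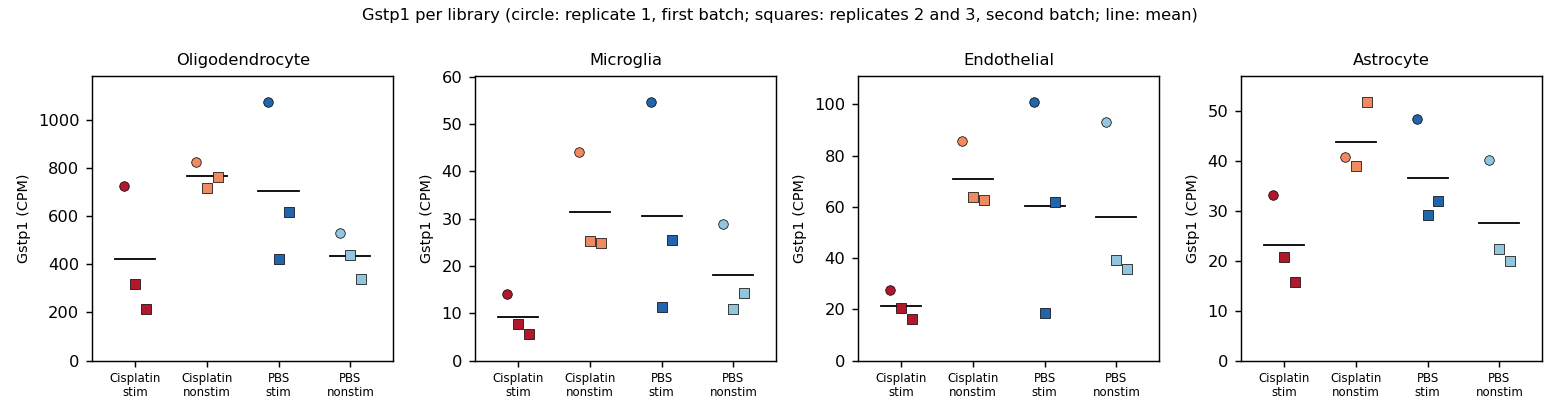
Gstp1 in CPM for each library in oligodendrocytes, microglia, endothelium and astrocytes, with Cisplatin stim, Cisplatin nonstim, PBS stim and PBS nonstim from left to right; lines mark group means. Cisplatin stim libraries lie below every Cisplatin nonstim library in microglia and endothelium, and replicate 1 is the highest library of most groups.

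The peroxidases differed less. Gpx4 was positive in all 9 types and called in oligodendrocytes and OPCs beside neurons. In oligodendrocytes it had 1075, 1219.5 and 1099 CPM in Cisplatin stim libraries, 809, 1080.5 and 1110.1 CPM in Cisplatin nonstim libraries, 806, 872 and 818 CPM in PBS stim libraries and 807, 847 and 851 CPM in PBS nonstim libraries. The cisplatin and PBS ranges overlapped. The averaged log2 fold change was 0.38 ± 0.069 (adjusted p = 5.25e-04, edgeR; batch ratios 1.17 (first) and 1.33 (second)), kept in 12 of 12 leave-one-out fits, and among stimulated mice it was 0.46 ± 0.10 (adjusted p = 0.00306, edgeR). In OPCs it had 257, 271 and 435 CPM in the cisplatin libraries, against 206, 219 and 266 CPM in the PBS libraries, a log2 fold change of 0.47 ± 0.12 (adjusted p = 0.0349, edgeR; batch ratios 1.06 (first) and 1.52 (second)), beside 1.55% of OPC genes called higher, and was kept in 5 of 12 leave-one-out fits. The 7 fits that lost it left out a PBS library of the second batch, Cisplatin nonstim 2 or Cisplatin stim 2 or 3 (adjusted p up to 0.226). Of the 31-base words of Gpx4, 38.9% occur in other genes, mostly the pseudogene Gpx4-ps2. Toward the counted 3' end of its transcripts, 63.95% of the words do.

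In microglia the cisplatin libraries all lay above the PBS libraries for Gpx4 (281, 294 and 322 CPM in the cisplatin libraries, against 231, 266 and 279.7 CPM in the PBS libraries), by a small log2 fold change of 0.18 ± 0.073 (adjusted p = 0.0943, edgeR). In choroid plexus, where it is most abundant, it had 2535, 3239.9 and 3990.2 CPM in the cisplatin libraries, against 2020.0, 2190.0 and 4143 CPM in the PBS libraries, with opposite directions in the batches (ratios of 0.639 (first) and 1.69 (second), the first again against those PBS libraries of 18 and 29 cells) and no call (adjusted p = 0.0696, edgeR). Gpx1 was called in choroid plexus, with 150.3, 235 and 308 CPM in the cisplatin libraries, against 116, 162 and 304 CPM in the PBS libraries. Its log2 fold change was 0.65 ± 0.21 (adjusted p = 0.0472, edgeR), with batch ratios of 0.617 (first, against the same small PBS libraries) and 1.83 (second). Without the second-batch PBS libraries, however, it was -0.32. With a minimum of 30 cells it was 1.01, but no first-batch PBS library then remained. The call was kept in 4 of 12 leave-one-out fits, being lost without any 1 of the 8 second-batch libraries (adjusted p up to 0.198, edgeR). In microglia, a main site of Gpx1, it had 506, 596 and 643 CPM in the cisplatin libraries, against 459, 526 and 542 CPM in the PBS libraries and a value of 0.21 ± 0.075 (adjusted p = 0.0596, edgeR).

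Of the glutathione-synthesis genes only Gclm was called, in oligodendrocytes. It had 192, 199.9 and 198 CPM in Cisplatin stim libraries, 158, 189.9 and 161 CPM in Cisplatin nonstim libraries, 126, 151 and 159 CPM in PBS stim libraries and 128, 159 and 142 CPM in PBS nonstim libraries. The averaged log2 fold change was 0.37 ± 0.071 (adjusted p = 7.03e-04, edgeR), the batch ratios were 1.37 (first) and 1.23 (second), and all 12 leave-one-out fits kept the call. Among stimulated mice it was 0.45 ± 0.10 (adjusted p = 0.00501, edgeR). With the ribosomal RNA-like covariate the averaged call was lost, as were all higher calls of members there. The call among stimulated mice stayed (0.50, adjusted p = 0.045, edgeR). Gclc, the catalytic subunit, had 30.7, 34.2 and 41.2 CPM in the cisplatin libraries, against 19.2, 34.6 and 41.9 CPM in the PBS libraries in the same cells and a value of 0.068 ± 0.11 (adjusted p = 0.763, edgeR). Over its 7 tested types Gclc ranged from -0.14 to 0.56 with no call. Ependymal cells, its highest type, had too few libraries for a test. Gclc there had 190.5 to 260.6 CPM in 4 cisplatin libraries and 128.6 to 189.1 CPM in 5 PBS libraries. These did not overlap, as was so in the same direction for 2.03% of 7155 ependymal genes. Gclm overlaps Gm17494, an antisense gene, and Gm6061.

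Nqo1, among the most widely used Nrf2 targets, passed the filter in 3 types. In oligodendrocytes it was rare, with 1.93, 5.91 and 10.1 CPM in Cisplatin stim libraries, 3.57, 3.96 and 4.38 CPM in Cisplatin nonstim libraries, 1.01, 2.48 and 2.02 CPM in PBS stim libraries and 1.55, 0.849 and 2.02 CPM in PBS nonstim libraries. It rose by a log2 fold change of 1.58 ± 0.36 (adjusted p = 0.00323, edgeR), with batch ratios of 2.14 (first) and 3.31 (second), and the call was kept in 12 of 12 leave-one-out fits. Among stimulated mice it was 1.65 ± 0.53 (adjusted p = 0.0393, edgeR), kept in 5 of 12 and lost without any PBS stim library, Cisplatin stim 2 or 3, Cisplatin nonstim 3 or PBS nonstim 3 (adjusted p up to 0.318). In choroid plexus, its main site, it had 40.2, 89.5 and 102 CPM in the cisplatin libraries, against 39.8, 57.3 and 66.4 CPM in the PBS libraries. These ranges overlapped, and the log2 fold change was 0.74 ± 0.18 (adjusted p = 0.021, edgeR; batch ratios 1.23 (first) and 1.60 (second)), lost without any 1 of the 8 second-batch libraries (adjusted p up to 0.0938).

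Txnrd1 gave the 1 lower call among the averaged differences, in choroid plexus, beside 8.43% of choroid plexus genes called lower. It had 28.4, 41.3 and 47.8 CPM in the cisplatin libraries, against 45.3, 64.0 and 99.6 CPM in the PBS libraries, with overlap. It fell by 0.49 on the log2 scale with an SE of 0.16 (adjusted p = 0.0489, edgeR; batch ratios 0.526 (first) and 0.642 (second)). Only 3 of 12 leave-one-out fits kept the call; it was lost without any second-batch library or Cisplatin stim 1 (adjusted p up to 0.212). In OPCs, where Txnrd1 is higher, it had 38.8, 63.0 and 87.0 CPM in the cisplatin libraries, against 71.9, 92.6 and 116 CPM in the PBS libraries and a log2 fold change of -0.56 ± 0.17 (adjusted p = 0.0764, edgeR). Txnrd1 overlaps Gm38560, Gm47073 and Eid3.

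The steepest differences were in cells annotated as neurons. Gstm1 had 122, 308 and 569 CPM in the cisplatin libraries, against 49.6, 114 and 139 CPM in the PBS libraries there. In neurons 6.69% of all genes were called higher. Gstm1 rose by 1.78 ± 0.29 on the log2 scale (adjusted p = 9.91e-04, edgeR; batch ratios 1.36 (first) and 3.70 (second)), Gstm5 by 1.36 ± 0.25 (adjusted p = 0.00232, edgeR) and Gpx1 by 1.07 ± 0.30 (adjusted p = 0.0227, edgeR). Gpx4 had 524, 706 and 1429 CPM in the cisplatin libraries, against 255, 323 and 416 CPM in the PBS libraries, with no overlap, and rose by 1.69 ± 0.27 (adjusted p = 9.86e-04, edgeR; batch ratios 1.61 (first) and 3.08 (second)). Gpx1 lost its call without PBS nonstim 3, PBS stim 2, Cisplatin nonstim 3 or Cisplatin stim 2 (adjusted p up to 0.0789), and the other 3 calls were kept in 12 of 12 leave-one-out fits. Among stimulated mice Gstm5, Gstm1 and Gpx4 were called with values of 1.70, 2.01 and 2.00 (adjusted p = 0.0203, 0.0154 and 0.0141, edgeR), and each was lost without PBS stim 2 or 3 or Cisplatin stim 2 (adjusted p up to 0.234, 0.2 and 0.197).

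Markers of other cell types moved with these calls. Of 6 astrocyte markers tested in neurons, 4 were called higher with cisplatin, and their summed level was 7.47% to 27.0% of the astrocyte level in cisplatin libraries and 4.72% to 7.64% in PBS libraries. Gstm1 stood at 9.92% to 29.0% and 4.32% to 11.9% of its astrocyte level. All 3 oligodendrocyte markers tested in neurons were called higher as well, with a median log2 fold change of 1.82, beside 1.41 for the astrocyte markers, and so was 1 of 2 choroid plexus markers. The part of these cell types in the neuronal calls was not tested. The neurons fell in 3 of the authors' clusters. Cluster 10, with 516 cells, had a median mitochondrial share of 31.8% and a summed astrocyte-marker level of 6103 CPM, against 504 CPM in cluster 12 and 211 CPM in cluster 19. Its neuron markers summed to 1328 CPM, against 12117 and 6262 CPM. In cluster 10 the astrocyte markers thus outweighed the neuron markers, against its label. It made up 46.8% to 80.4% (median 56.5%) of the neurons in cisplatin libraries and 23.1% to 68.1% (median 28.3%) in PBS libraries.

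Gstm1 in cluster 10 had a median of 568 CPM (248 to 809.5) in cisplatin libraries and 343 CPM (208 to 406) in PBS libraries. In cluster 12 it was 26.9 CPM (0 to 45.0) in cisplatin libraries and 20.4 CPM (7.82 to 50.8) in PBS libraries. When cluster 10 was left out, an alternative chosen after the data were seen, no member was called in neurons: Gpx4 stood at 0.26, Gstm5 at -0.56, and Gstm1 did not pass the filter.

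**Figure D5:**
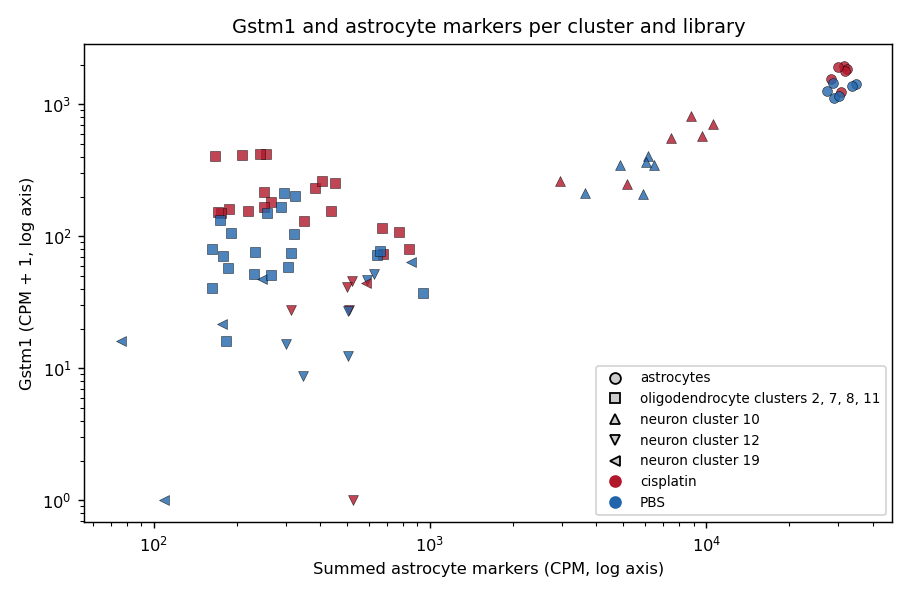
Gstm1 (CPM + 1) against the summed CPM of 7 astrocyte markers, both on log axes, with 1 point for each cluster and library of astrocytes, oligodendrocytes and neurons, red for cisplatin and blue for PBS. Oligodendrocyte points lie at low marker levels. Cisplatin lies above PBS within oligodendrocyte clusters 2, 8 and 11, but the points overlap over all oligodendrocyte clusters, which share 1 symbol. Cluster 10 of the neurons lies between clusters 12 and 19 and the astrocytes on both axes.

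Around the members, 87 other genes of the pathway in 7 lists gave 481 tested pairs with a cell type. Averaged over stimulation, 43 were called higher and 9 lower (edgeR), against the 5.12% and 4.6% of all pairs given above. With the ribosomal RNA-like covariate these became 4 higher and 0 lower, and without the second-batch PBS libraries 11 higher and 2 lower. Among the Nrf2 regulators 6 of 57 pairs were higher and 1 lower. In oligodendrocytes Maff, a small Maf protein that pairs with Nrf2, had 7.26 ± 6.21 CPM in cisplatin libraries and 0.615 ± 0.371 CPM in PBS libraries (SD, n = 6 each), and rose by 3.02 ± 0.52, adjusted p = 3.15e-04. Keap1, the inhibitor of Nrf2, had 53.3 ± 7.35 CPM in cisplatin libraries and 34.3 ± 5.32 CPM in PBS libraries (SD, n = 6 each) there, and rose by 0.68 ± 0.10, adjusted p = 4.20e-05 (both log2 with SE, edgeR). Keap1 was also called higher in pericytes (log2 fold change 0.99 ± 0.23), while Cul3, the ligase scaffold that works with Keap1, was lower in microglia (-0.29 ± 0.089).

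Other glutathione transferases were called higher in 10 of 52 pairs and lower in 1. In oligodendrocytes Gstk1, the mitochondrial and peroxisomal kappa-class enzyme, had 44.8 ± 9.95 CPM in cisplatin libraries and 23.3 ± 3.78 CPM in PBS libraries (SD, n = 6 each), a log2 fold change of 0.97 ± 0.11, adjusted p = 5.07e-06 (edgeR). Gstm6 had 23.0 ± 4.11 CPM in cisplatin libraries and 10.1 ± 1.69 CPM in PBS libraries (SD, n = 6 each), a value of 1.25 ± 0.16, adjusted p = 1.39e-05 (edgeR). Gstm7 stood at 0.56 ± 0.15 and Gsto1 at 0.55 ± 0.20. In choroid plexus Gstm7 (1.30 ± 0.37), Gstm2 (0.88 ± 0.19), Gstk1 (0.60 ± 0.19) and Gstt1 (0.61 ± 0.19) were called higher, as was Gstm2 in endothelium (0.83 ± 0.21). The lower call was Gstt2 in microglia (-0.78 ± 0.26). Mu-class genes resemble each other and Gstm1 in sequence, so their counts are uncertain.

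The remaining lists, other than the selenoproteins, had higher calls at shares near the 5.12% of all pairs, and 11.3% of all oligodendrocyte genes were called higher. The genes named from them are therefore single values. Peroxide and superoxide enzymes had 6 of 91 pairs higher and 2 lower. In oligodendrocytes the peroxiredoxins Prdx4 (0.53 ± 0.086) and Prdx5 (0.47 ± 0.10) were higher, while Prdx2 (-0.25 ± 0.07) and Cat, the catalase gene (-0.63 ± 0.10, adjusted p = 1.75e-04, edgeR), were lower. Of the selenoproteins and the genes that make them, the list with the most calls, 11 of 108 pairs were higher and 2 lower, among the higher ones Selenow in microglia (0.60 ± 0.081, adjusted p = 4.26e-05, edgeR). Other Nrf2 targets had 5 of 83 higher and 1 lower; Ephx1, the microsomal epoxide hydrolase, was higher in astrocytes (0.98 ± 0.20, adjusted p = 0.00356, edgeR), oligodendrocytes (0.94 ± 0.26) and endothelium (0.67 ± 0.13). Genes of glutathione supply had 3 of 55 higher, all of them Slc3a2, the heavy chain of the cystine transporter, and 1 lower, Glrx2 in astrocytes (-0.45 ± 0.11). Thioredoxin genes had 2 of 35 higher, Txn2 in oligodendrocytes and choroid plexus, and 1 lower, Txnip in microglia (-0.24 ± 0.074).

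In the same 481 pairs, Cisplatin nonstim against PBS nonstim gave 10 higher and 1 lower call, beside 0.937% and 0.707% of all pairs, and Cisplatin stim against PBS stim gave 19 higher and 3 lower, beside 2.16% and 1.73%. For Cisplatin stim against Cisplatin nonstim, edgeR called only Maff in oligodendrocytes, higher by a log2 fold change of 2.15, and DESeq2 and limma-voom called none. The interaction and PBS stim against PBS nonstim gave 0 calls by edgeR, with 21 and 9 pairs at an unadjusted p under 0.05, and 0 by DESeq2 and limma-voom.

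Likeness of pattern was measured as Pearson's r of mean log2 CPM over the 12 cell types, among 12633 genes with a mean of at least 20 CPM in 1 type, as a description over types that share libraries and free RNA. Gstm1 was most like Ass1 (0.898), Gja1 (0.865) and Lars2 (0.862); Gja1 is 1 of the astrocyte markers and Lars2 1 of the ribosomal RNA-like transcripts. Among the genes most like Gstp1 were Prima1 (0.909) and B230206H07Rik (0.897). Gpx1 was most like Casp8 (0.954), Stat6 (0.946) and F11r (0.946), and among those most like Gclm were Mpp5 (0.969) and Fam189a2 (0.939). Of the rest, Gstm5 was most like Pmm1 (0.907), Ahcyl1 (0.899) and Npepps (0.894), Gpx4 most like Nrtn (0.916), Mcee (0.895) and Ndufa2 (0.877), and Gsta4 most like Nxn (0.948), Pir (0.940) and Yap1 (0.931). Among those most like Gclc were Paf1 (0.903) and Thada (0.883), while Nqo1 was most like Ctf1 (0.958), Cox6b2 (0.924) and Igfbp2 (0.900), and Txnrd1 most like Thoc7 (0.936), Nudt21 (0.897) and Hist1h3i (0.889).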

How the data were processed

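UMI counts per gene and cell, not normalized, were deposited by the authors as 1 matrix of 19834 cells and 32285 genes, with a library name, cell type and cluster for each cell. The submitters' processing notes name Cell Ranger 5.0.0, Scanpy and the mm10 build, without roles; other settings are not given in the sources used here. Each cell also had a doublet score deposited by the authors, at most 0.097, and no cell was marked as a doublet or removed here. A total signal per cell was deposited by the authors, with decimals and with no note on how it was scaled; it entered no test. Of 19778 distinct barcodes, 56 occur in 2 libraries.

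Counts were summed per library and authors' cell type where at least 10 cells were present, and types with at least 2 such libraries in each group were tested. Each fit used edgeR 4.0.16 in R 4.3.3 (TMM, filterByExpr, quasi-likelihood test) with the 4 groups and the batch, and p-values were adjusted by Benjamini-Hochberg over all genes of a type and comparison, with a threshold of 0.05. Pericyte fits had 11 libraries, since PBS stim replicate 1 had too few cells. The code was tested on simulated data. Alternatives used DESeq2 1.42.0, limma 3.58.1 (voom) and the settings in the closing section. RefSeq promoter windows were found for 8 of the 10 members; Gsta4 and Gclc had none. All members are reported, called pairs in full and others by range and count; of the other pathway genes at most 4 called per type and direction are named, by smallest adjusted p. The members, lists and marker lists were chosen with earlier results of these data known. For each member up to 3 genes of most similar pattern are named; some of these are not reported here. Replicates are libraries, and cells of a library are not independent.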

Additional observations from a re-analysis of the deposited data

Results flagged for a closer look

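The difference in stimulation effect between cisplatin and PBS mice passed the interaction test for 1 member in a pair of cell types. For Gstp1 in microglia the log2 fold change of stim over nonstim was 2.45 lower in cisplatin than in PBS mice (interaction -2.45, adjusted p = 0.0168, edgeR). For Gstp1 in oligodendrocytes the interaction was -1.66 (adjusted p = 0.0163, edgeR). Both lost their call without the batch term. Groups of 3 libraries are too small for a test of single outlying libraries, and none was made.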

How the results depend on the processing

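Counts of called members (higher and lower together) are given per comparison. The share of all genes called under each alternative is not given, and counts of other pathway genes also moved between cisplatin and PBS. Averaged over stimulation, 18 became 1 with the ribosomal RNA-like covariate and 2 without the second-batch PBS libraries. For Cisplatin nonstim against PBS nonstim, 3 became 5 with DESeq2, 10 with a minimum of 30 cells, 7 with no filter, 16 in the second batch alone, 1 with no batch term, 0 with the covariate and 0 without the second-batch PBS libraries. For Cisplatin stim against PBS stim, 11 became 19 with a minimum of 30 cells, 22 in the second batch alone, 4 with no batch term, 6 with the covariate and 5 without the second-batch PBS libraries. For Cisplatin stim against Cisplatin nonstim, 3 became 1 with limma-voom, 0 with no batch term, 6 with no filter and 5 in the second batch alone. The interaction count of 2 became 1 with limma-voom, 0 with no batch term, 7 with no filter and 4 in the second batch alone, and PBS stim against PBS nonstim had 1 call with no filter. Leaving out each library in turn gave 8 to 23 calls for the average, 1 to 9 for Cisplatin nonstim against PBS nonstim, 5 to 15 for Cisplatin stim against PBS stim, 0 to 3 for Cisplatin stim against Cisplatin nonstim, 0 to 3 for the interaction and 0 for PBS stim against PBS nonstim. The direction turned for Gstm1 in astrocytes (-0.013 with the covariate), Gpx1 in choroid plexus (-0.18 with the covariate and -0.32 without the second-batch PBS libraries), and Gstm5 in neurons without cluster 10 (-0.56 averaged and -0.95 among stimulated mice), an alternative chosen after seeing the data. The cause of these changes was not tested.

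Over the 37 calls and all alternatives, 691 values kept direction and call, 215 kept the direction only and 5 turned. The 691 include 30 values of other cell types that leaving out neuron cluster 10 could not change. Some alternatives gave no value for some calls, and these are not counted. Other normalizations, cells with at most 10% mitochondrial UMIs, and counts without ribosomal RNA-like and mitochondrial genes left every count above within 1.5 times. Among types present in most libraries, the highest type of Txnrd1 changed from OPCs to ependymal cells in the second batch alone and without PBS nonstim 1 or 2; the astrocyte and ependymal order of Gstm1 and the immune and microglial order of Gpx1 each turned when single libraries were left out.

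Same-numbered libraries deviated together only in part: the median correlation of their deviations was 0.334, 0.085 and 0.106 for numbers 1, 2 and 3 in the cisplatin arm and 0.404, 0.210 and 0.153 in the PBS arm, and 0.022 to 0.249 between cisplatin and PBS groups of like stimulation. As not every pair passed 0.1, the numbers are taken as names. With the replicate block the average gave 16 calls, all higher (Gpx1 and Txnrd1 in choroid plexus were lost, adjusted p = 0.089 and 0.094), and the other 5 comparisons kept their counts of 3, 11, 3, 2 and 0. Low counts limit Gstp1 in microglia (562 UMIs over all libraries) and Nqo1 in oligodendrocytes (102). They also limit other called pairs, among them Gstm1 in microglia (449), Gstp1 in endothelium (466) and Gpx1 in neurons (137).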
